A study of Mus musculus with 6 samples.

Results

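The baseline transcriptome of control Neuro-2a cells was taken from the 2 control libraries of a series of 6. They were picked out by their label, with earlier results of these data known. Neuro-2a is an established mouse neuroblastoma line, and RNA sequencing of its polyadenylated transcripts gave 1 value in FPKM (sequenced fragments per kilobase of transcript, scaled to the library's total of mapped fragments) for each of 21878 gene rows and library. The controls were labelled wild type, with no empty vector, scrambled RNA or other agent named. The 4 other libraries came from the same line with the long noncoding RNA lncPim1 overexpressed or knocked down and were not used here. The labels do not say whether the control libraries came from separate cultures, so the spread between them, given as SD with n = 2, may be technical. No groups were compared, and no p-value is given.

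Neuroblastoma arises in the sympathetic branch of the neural crest, the embryonic cell population that also forms autonomic ganglia and the adrenal medulla. Sympathetic identity rests on a set of transcription factors, among them the homeodomain protein PHOX2A, the basic helix-loop-helix protein HAND2, GATA2, GATA3 and the LIM-homeodomain protein ISL1, which together switch on the genes for noradrenaline synthesis. In neuroblastoma many of these factors stay active, often beside a MYC family gene, and some tumour cells instead take on a mesenchymal state with other factors.

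All 6 genes fixed as markers of the line were present in both libraries. Tubb3, the neuronal beta-tubulin, stood at 397 and 388 FPKM and Phox2a at 237 and 210. Hand2 followed at 108 and 106, Isl1 at 16.1 and 14.8, Mycn at 10.2 in each, and Gata3, the lowest, at 3.95 and 3.53. By mean level Tubb3 ranked 92 and Gata3 8290 of all rows. All values are averages over a culture, so fewer cells with a transcript and less transcript per cell cannot be told apart.

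Of all rows, 10613 reached a mean of at least 1 FPKM, the level taken here as present (48.5% of rows), and 6006 were listed at 0 in both libraries (27.5%), which can include failed estimates. The remaining rows lay between, 2884 of them above 0 and under 0.1 FPKM. Rows of 1 to 10 FPKM numbered 5417 and rows of 10 to 100 FPKM 4699 (21.5% of all rows). Rows of 100 to 1000 FPKM numbered 482 (2.20%), and 15 rows lay higher (0.0686%). Present rows had a median of 9.70 FPKM. Counts of present members given below are to be read beside the 48.5% of all rows. Counts of members at 10 FPKM or more are to be read beside the shares of the classes from 10 FPKM up. The libraries stood close together. Their values had a Spearman correlation of 0.997 over present rows, and a median absolute difference of 0.065 on the log2(FPKM + 1) scale. The coefficient of variation between them had a median of 85.7% for rows above 0 and under 0.1 FPKM, 17.6% from 0.1 to 1 FPKM, 4.94% from 1 to 10 FPKM and 2.85% from 10 to 100 FPKM. Values under 0.1 FPKM thus carry little precision, and 1367 rows were at 0 in only 1 of the libraries.

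**Figure D1:**
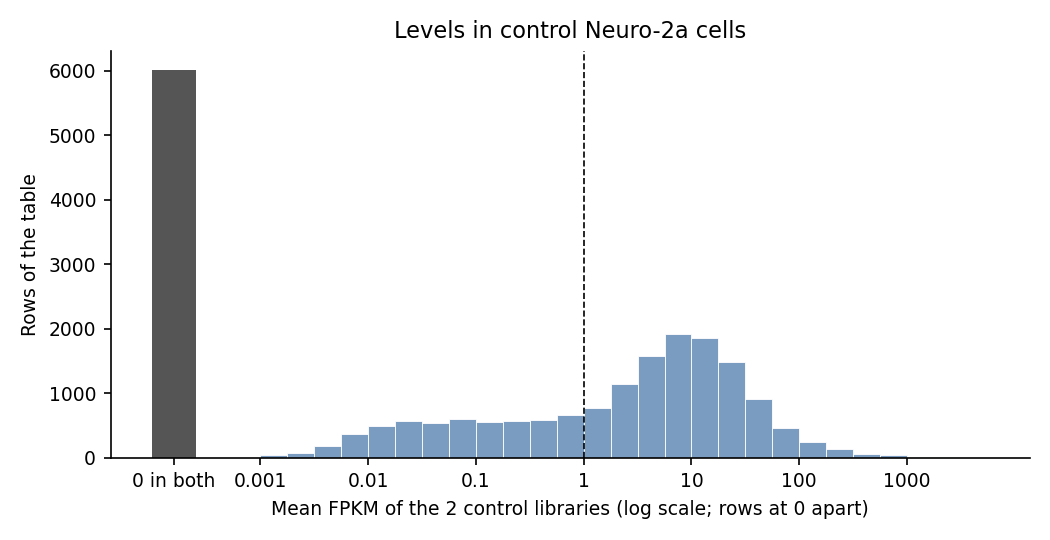
Number of table rows (vertical axis) by mean FPKM of the 2 control libraries (horizontal axis, log scale), with rows at 0 in both libraries as a separate dark bar. A broad shelf of low rows runs without a gap into a peak near 10 FPKM, and the dashed line marks 1 FPKM, reached by 10613 rows.

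Among the rows listed, the most abundant transcripts encoded the translation machinery. The symbol pattern for genes of the mitochondrial genome matched 0 rows, so ranks and shares are given without them. Rpl41, a ribosomal protein of the large subunit, led with 2608 and 2777 FPKM, ahead of Rps23 of the small subunit (2384 and 2555) and Eef1a1, the elongation factor that brings aminoacyl-tRNA to the ribosome (2364 and 2514). Cytosolic ribosomal protein genes made up 18 of the 30 highest rows and 49 of the 100 highest. Together the 87 rows of that family held 15.3% and 15.5% of the summed FPKM, and 85 of them were present. The 100 highest rows held 24.6% of the sum and the 1000 highest 59.7%.

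Outside the ribosome, the 30 highest rows held Ppia, the prolyl isomerase cyclophilin A (1767 and 1903 FPKM), the ferritin subunits Ftl1 (1781 and 1847) and Fth1 (923 and 1083), which store iron, and the actin gene Actb (1124 and 1256). Mif, a cytokine with tautomerase activity, stood at 1113 and 1133, Atp5b, the catalytic subunit of ATP synthase, at 995 and 1033, and Lgals1, the lectin galectin-1, at 933 and 1019. Tubb5, a tubulin of dividing cells, Hsp90ab1, a constitutive chaperone, Tpt1 and Cox7c, a subunit of cytochrome oxidase, completed the non-ribosomal rows with means of 815 to 957 FPKM.

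Some genes used as loading controls did not rank with their peers. Gapdh, a glycolytic enzyme, was listed at 1.00 and 0.964 FPKM, whereas the neighbouring glycolytic genes Ldha (454 and 464), Eno1 (333 and 350), Tpi1 (216 and 223) and Pgk1 (172 and 185) were all far higher. The 87 ribosomal protein rows had a median of 429.5 FPKM, yet Rpl21 stood at 3.49 and 3.11, Rpl35a at 11.3 and 8.42 and Rpl29 at 15.4 and 12.9. These low members were picked out after their values were seen. Gapdh and many ribosomal protein genes have near-identical processed pseudogenes in the mouse genome. The labels and processing notes do not state how reads with several matches were assigned, so the levels of such genes are uncertain, and the part of this in the low values was not tested.

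Of 22 factors listed for the noradrenergic lineage, 15 were present (68.2%) and 3 were listed at 0 in both libraries (13.6%). Over all rows these shares were 48.5% and 27.5%. Phox2a was the most abundant at 223 ± 18.7 FPKM (SD, n = 2), rank 194 of all rows. Hand2 reached 107 ± 1.67, whereas Hand1, its paralog of heart and placenta, stood at 0.249 and 0.144. Insm1, a zinc finger factor of neuroendocrine cells, measured 81.7 and 72.9, Sox4, an SRY-box factor of immature neurons, 68.1 and 70.5, and Lmo1, a LIM-only cofactor known as a neuroblastoma oncogene, 48.1 and 46.8. Phox2a, Hand2, Insm1, Sox4 and Lmo1 were each higher in both libraries than all other lineage factors named here.

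A middle set followed. Gata2 stood at 26.4 and 24.4 FPKM, above Gata3 in both libraries. Sox11 (16.3 and 15.2) and Isl1 (16.1 and 14.8) overlapped. Below them came Klf7, a Krüppel-like factor of neurons, at 12.9 and 12.1, the T-box gene Tbx2 at 10.6 and 11.1 and Mycn at 10.2 in each library. Six3 (3.85 and 4.01) overlapped with Gata3. Apart from these 2 overlaps, every other neighbouring pair among the present factors named here was separated in the libraries.

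Factors of the same list that were not present included Tlx2 and Hmx1, homeobox genes of peripheral neurons, which were listed at 0 in both libraries. Tfap2b, an AP-2 factor of the sympathoadrenal line, stood at 0.662 and 0.550, Lmo3 at 0.501 and 0.421, and Eya1 at 0.0241 and 0. The list was therefore present in part, with high Phox2a, Hand2 and Gata2 beside Tlx2 and Hmx1 at 0.

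**Figure D2:**
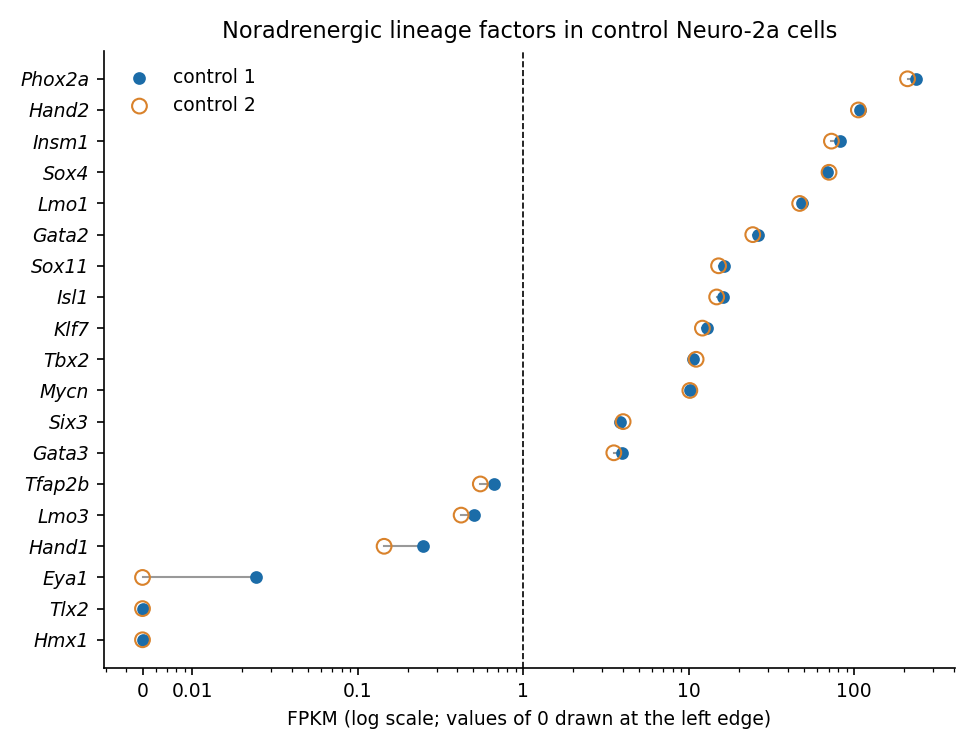
FPKM (horizontal axis, log scale) of the 19 noradrenergic lineage factors named in the text, with filled circles for control 1 and open circles for control 2. Phox2a lies highest at 237 and 210 FPKM, 13 of them lie right of the dashed line at 1 FPKM, and Tlx2 and Hmx1 lie at 0.

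The 250 bases before the RefSeq start (build GRCm38.p6) are printed for 4 lineage factors, 1 very abundant, 1 of middle level, 1 at 0 and 1 low, because CpG dinucleotides at the start went with the level across the table. CpG dinucleotides are in capitals, and each sequence runs 5′ to 3′ on the strand of its gene. Phox2a lies at chr7:101818063-101818312 on the plus strand, Isl1 at chr13:116309689-116309938 on the minus strand, Hmx1 at chr5:35388611-35388860 on the plus strand and Lmo3 at chr6:138581969-138582218 on the minus strand.
Phox2a: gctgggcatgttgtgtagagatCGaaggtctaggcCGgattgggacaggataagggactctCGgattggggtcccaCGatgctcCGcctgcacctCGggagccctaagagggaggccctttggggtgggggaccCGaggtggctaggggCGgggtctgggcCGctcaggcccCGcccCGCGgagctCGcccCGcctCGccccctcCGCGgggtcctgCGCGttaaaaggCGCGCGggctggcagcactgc
Isl1: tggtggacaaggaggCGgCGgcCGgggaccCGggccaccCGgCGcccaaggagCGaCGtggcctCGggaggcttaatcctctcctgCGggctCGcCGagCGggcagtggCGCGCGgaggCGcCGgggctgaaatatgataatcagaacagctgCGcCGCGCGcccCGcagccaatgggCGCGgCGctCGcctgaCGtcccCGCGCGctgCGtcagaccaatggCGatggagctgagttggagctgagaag
Hmx1: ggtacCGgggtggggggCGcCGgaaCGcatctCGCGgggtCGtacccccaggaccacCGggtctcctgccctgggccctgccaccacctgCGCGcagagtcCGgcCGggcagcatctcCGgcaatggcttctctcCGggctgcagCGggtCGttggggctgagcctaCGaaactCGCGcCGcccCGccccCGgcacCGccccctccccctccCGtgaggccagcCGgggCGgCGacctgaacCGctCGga
Lmo3: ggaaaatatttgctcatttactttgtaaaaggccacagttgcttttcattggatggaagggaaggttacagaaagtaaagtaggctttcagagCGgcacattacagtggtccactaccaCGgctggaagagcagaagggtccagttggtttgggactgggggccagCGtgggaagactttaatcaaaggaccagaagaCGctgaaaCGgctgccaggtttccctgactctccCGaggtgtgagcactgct

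In these windows Phox2a (mean 223 FPKM) held 22 CpG, Isl1 (15.4 FPKM) 33, Hmx1 (listed at 0) 29 and Lmo3 (0.461 FPKM) 6. The ratio of observed to expected CpG, which corrects for base composition, was 0.722 for Phox2a, 1.05 for Isl1, 0.818 for Hmx1 and 0.400 for Lmo3. A CpG-rich start thus did not set Hmx1 apart from the factors that were present. Among the 14 lineage factors with a RefSeq window, Tfap2b had the lowest ratio (0.391) and Isl1 the highest.

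Windows were found for 16275 of the symbols (74.4%). The median CpG ratio was 0.173 for genes listed at 0 in both libraries, 0.339 for those above 0 and under 0.1 FPKM, 0.392 from 0.1 to 1, 0.704 from 1 to 10, 0.778 from 10 to 100 and 0.815 at or above 100 FPKM. The largest step between neighbouring classes lay at 1 FPKM. The GC content of the windows moved with it, from a median of 44.8% for genes at 0 to 60.8% for genes of 10 to 100 FPKM, and its part in the CpG ratio was not tested. Without olfactory and vomeronasal receptors the median of the genes at 0 was 0.214. A ratio of at least 0.6 was found in 10.5% of genes at 0 and 77.5% of genes of 10 to 100 FPKM, against 45.2% over all levels. The motif TATAAA, the only one searched, was sought on both strands of the same windows, and any window of a gene sufficed. It was held by 25.6% of genes at 0, against 13.5% over all. The share was 6.15% for genes of 10 to 100 FPKM and 10.6% at or above 100 FPKM. Without olfactory and vomeronasal receptors the motif was held by 20.8% of genes at 0, against 11.5% over all. The part of base composition in the motif shares was not tested. Across genes, the Spearman correlation of mean FPKM and CpG ratio was 0.632 over 16275 genes and 0.215 over the 8282 present ones. Genes of 1 family are not independent points.

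**Figure D3:**
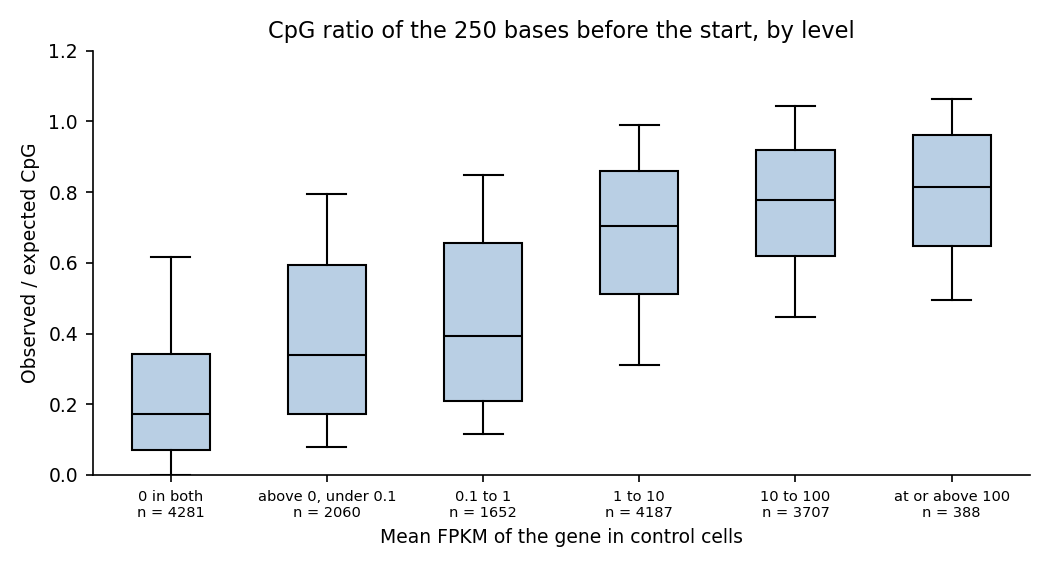
Ratio of observed to expected CpG (vertical axis) in the 250 bases before the start, for genes grouped by mean FPKM in control cells (horizontal axis). Boxes span the quartiles around the median and whiskers the 10th to 90th percentiles. The median climbs from 0.173 for genes at 0 to 0.815 at or above 100 FPKM.

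Of the 39 Hox genes in the table, which give cells their position along the body axis, 3 were present (7.69%) and 31 were listed at 0 in both libraries. All 3 lay in the Hox C cluster on chromosome 15. Hoxc10 stood at 26.8 and 24.4 FPKM, Hoxc9 at 10.5 in each library and Hoxc6 at 1.55 and 1.41. Hoxc4 (1.03 and 0.694), Hoxc5 (0.349 and 0.715) and Hoxc8 (0.541 and 0.425) were low, and Hoxc11, Hoxc12 and Hoxc13 were listed at 0. The levels dropped at once past Hoxc10 (chr15:102966796-102971893), since the next gene of the cluster, Hoxc11 (chr15:102954427-102957708), was at 0 in both libraries. All 11 Hox A genes and all 9 Hox D genes were at 0, and of 10 Hox B genes only Hoxb4 and Hoxb5 had a value, each under 0.04 and in 1 library only.

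**Figure D4:**
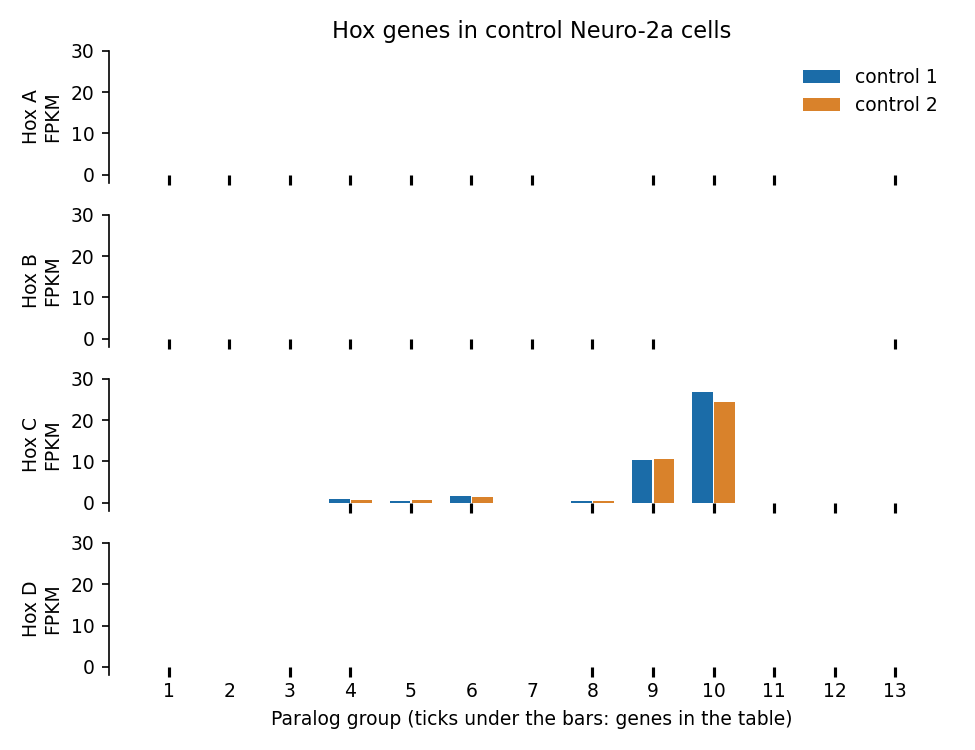
FPKM (vertical axis) of the Hox genes of clusters A to D by paralog group (horizontal axis), with blue bars for control 1 and orange bars for control 2, and small ticks for each gene in the table. Bars are visible only in cluster C, where Hoxc10 reaches 26.8 and 24.4 FPKM.

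Lists of other neuron classes and of the neural crest and neural tube had smaller shares present than the noradrenergic list. Of 27 factors of other neuron classes, 4 were present (14.8%), against 48.5% of all rows. Of 20 neural crest and neural tube genes 5 were present (25%), Nes among them. Tlx3, a homeobox gene of sensory and brainstem neurons, stood at 13.2 and 10.2 FPKM, Pou4f1, of sensory neurons, at 3.38 and 3.01, and Pax3, of the dorsal neural tube and early neural crest, at 3.40 and 3.70. Nes, the intermediate filament of neural progenitors, stood at 22.8 and 22.7, whereas Sox2, Foxd3, Tfap2a and Olig2 were listed at 0. Gata4, best known from heart and endoderm, stood at 19.3 and 19.8, between Gata2 and Gata3, and the T-box gene Tbx20 at 11.8 and 11.5. Foxd1 reached 30.2 and 31.4 FPKM, about level with Foxk2 (31.3 and 30.8).

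Of 19 factors of the mesenchymal neuroblastoma state, 7 were present (36.8%, against 48.5% of all rows). Rows of 10 to 100 FPKM made up 21.5% of all rows, and 0 of the 19 factors reached 10 FPKM. At 0 in both libraries were 4 of them (21.1%, against 27.5% of all rows). The highest were Zeb1 (8.25 and 8.06), a repressor of epithelial genes, Maff (7.49 and 8.73) and Wwtr1 (6.73 and 8.62), the Hippo pathway coactivator TAZ. Its partner in that pathway, Yap1, had a mean of 0.0299 FPKM, and Prrx1 and Runx1 had means of 0.0388 and 0.0151. Twist1, Twist2, Meox2 and Tbx18 were at 0. Vimentin (Vim, 351 and 367) and fibronectin (Fn1, 47.8 and 47.1), genes of mesenchymal cells, were nevertheless abundant, while the fibroblast genes Col1a1, Col1a2, Col3a1 and Acta2 had means of at most 0.108.

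Genes of MYC and of growth control were mostly present. Of the 11 MYC family and partner genes all were present. Myc stood at 55.7 and 55.4 FPKM, above Mycn in both libraries, and Mycl at 0.897 and 1.69. Ccnd1, the cyclin D1 gene, stood at 226 and 225 and its kinase Cdk4 at 227 and 225, whereas Ccnd2 and Cdk6 had means of 0.038 and 0.0206. The p53 gene Trp53 was at 42.9 and 41.4, its target Cdkn1a at 47.4 and 55.4 and Cdkn2a at 36.6 and 31.4, while the adjacent Cdkn2b had a mean of 0.0201. Lin28a (26.6 and 24.9) and Lin28b (9.35 and 8.47), which block maturation of let-7 microRNAs, were present beside Pou5f1, Sall4 and Zfp42 at 0.

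Most genes of neuronal structure and release were present. Of 25 cytoskeleton and growth cone genes 21 were present, 20 of them at 10 FPKM or more, and of 20 synaptic release genes 17. Tuba1a (720 and 746), Stmn1 (540 and 552), Uchl1 (524 and 538) and Prph, the peripherin of peripheral neurons (381 and 398), were among the 100 highest rows with Tubb3. Gap43, a growth cone protein, stood at 150 and 152. Neurofilaments were uneven, with Nefh at 24.2 and 22.8 while Nefl and Nefm had means of 0.0306 and 0.00436. Dcx (0.346 and 0.232) and Rbfox3 (0.200 and 0.210), which mark young migrating and mature neurons, were not present.

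Release genes were led by Cplx1, a clamp of vesicle fusion (74.4 and 74.6), and Sv2c, a vesicle glycoprotein (65.1 and 65.5). Snap25 (44.2 and 40.5), Vamp2 (40.0 and 42.1) and Stx1a (13.2 and 14.5), the fusion complex itself, were all present. The active zone genes Rims1 and Pclo had means of 0.0172 and 0.0033. Of the granules, Chgb (244 and 228), Vgf (199 and 217) and Scg2 (104 and 115) were abundant, but of the neuropeptides only Cartpt (3.47 and 3.15), Pomc (3.11 and 3.06) and Npy (1.90 and 1.66) were present, and Gal, Penk, Tac1 and Calca were at 0.

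Transmitter genes were incomplete. Of 12 catecholamine genes 4 were present. Th, the rate-limiting enzyme of catecholamine synthesis, stood at 4.99 and 4.67 FPKM, Gch1, which makes its cofactor, at 66.5 and 71.5, and Slc18a2, the vesicular monoamine transporter, at 20.4 and 18.2. Ddc (1.02 and 0.680) and Dbh (0.246 and 0.155), the next enzymes toward noradrenaline, had means under 1, the noradrenaline transporter Slc6a2 had a mean of 0.00413, and Pnmt, which makes adrenaline, was at 0. Of the acetylcholine genes, Ache (5.23 and 5.58), which degrades it, and its membrane anchor Prima1 (18.1 and 16.7) were present, while Chat (0.126 and 0.331) was low and Slc18a3 at 0. Tph2 (2.51 and 2.81) and Tph1 (1.77 and 1.60), the enzymes of serotonin synthesis, were present.

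Of 342 receptor genes outside the sensory families, 100 were present (29.2%) and 104 were listed at 0, against 48.5% and 27.5% of all rows. Among receptor tyrosine kinases and neurotrophin receptors 16 of 29 were present. Ret, the receptor of GDNF family ligands, led with 83.0 and 84.0 FPKM, and its coreceptors Gfra1 (2.01 and 2.59), Gfra2 (0.228 and 0.538) and Gfra3 (0) were low. Ngfr, the p75 neurotrophin receptor, stood at 68.6 and 71.3, whereas Ntrk2, the receptor of BDNF, had a mean of 0.00132. Alk, a kinase mutated in some neuroblastomas, stood at 4.77 and 4.45, and Kit, Met and Erbb4 had means of at most 0.00632.

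Few transmitter receptor genes were present, and in some cases a usual partner was not. Pairing was not assessed over the families. Of 16 nicotinic subunits 4 were present, with Chrna3, the ganglionic alpha subunit, at 48.8 and 45.2 FPKM, Chrnb2 at 9.26 and 8.60, Chrna7 at 2.83 and 2.49 and Chrna5 at 1.45 and 1.12. Chrnb4, the usual beta partner of Chrna3 in ganglia, stood at 0.216 and 0.258. Of 19 GABA-A subunits 1 was present. Gabbr1 stood at 10.6 and 9.49 while its obligate partner Gabbr2 was at 0. The serotonin-gated channel subunit Htr3a stood at 19.8 and 20.7 and Htr3b at 0.304 and 0.312. Of the glutamate receptors, Grik5 (11.7 and 11.4), Grin1 (9.57 and 10.1), Gria2 (3.48 and 3.29) and Grin2d (1.13 and 0.886) were present. The name pattern of that family also took in Grina (230 and 242) and Grid2ip (1.47 and 1.63), which are not glutamate receptor subunits.

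Of 46 G protein receptors for classical transmitters 8 were present and 20 were at 0. The highest were Cnr1, the neuronal cannabinoid receptor (21.8 and 20.8 FPKM), Adora2a, an adenosine receptor (13.0 and 13.1), and Chrm4, a muscarinic receptor (3.29 and 3.21). All 5 dopamine receptors and all 9 adrenergic receptors had means under 0.4. Guidance receptors were uneven. Of 11 plexins and neuropilins 9 were present, led by Plxna1 (25.8 and 26.7). Of 10 Robo, Unc5 and DCC family genes 4 were present, the netrin receptors Unc5b (25.2 and 28.7), Unc5a (26.3 and 22.7) and Unc5c (17.8 and 15.8) and Neo1 (mean 19.1). Dcc was at 0, and the Slit receptors Robo1 to Robo4 had means of at most 0.252. Of 14 Eph receptors only Epha10 was present by its mean (1.54 and 1.45), and Ephb3 (1.14 and 0.700) reached 1 FPKM in control 1 alone. Of 22 nuclear receptors 12 were present, among them the retinoic acid receptors Rarg (12.3 and 12.7) and Rara (4.61 and 4.36), whereas Rarb stood at 0.110 and 0.0249. No chemokine receptor of 22 had a mean of 1 FPKM, and Ccr10 (0.451 and 1.40) reached it in control 2 alone.

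Of 246 channel and channel-associated genes 71 were present (28.9%, against 48.5% of all rows). Rows of 10 to 100 FPKM made up 21.5% of all rows, and 20 of the 246 genes reached 10 FPKM. Hcn2, a pacemaker channel opened by hyperpolarization, was the highest at 36.4 and 37.3, with Hcn3 (10.3 and 10.2) and Hcn4 (3.55 and 4.14) below it. Of 9 sodium channel alpha subunits 3 were present, Scn9a (6.38 and 6.59), Scn8a (3.17 and 3.02) and Scn3a (1.97 and 1.88), with the beta subunit Scn3b (8.47 and 8.42). Calcium channel subunits Cacna1b (3.42 and 3.08), of the N type, Cacna1c (3.08 and 3.03), of the L type, and Cacna1i (3.11 and 2.97), of the T type, overlapped. Of 40 voltage-gated potassium alpha subunits 8 were present, with Kcnh2 at 13.0 and 13.2, while of 15 inward rectifiers only Kcnj12 was (4.42 and 4.03). The leak channel Kcnk3 stood at 16.6 and 16.8, the proton-gated family member Asic4 at 15.3 and 15.2, and the mechanosensitive Piezo1 at 19.3 and 20.7. Store-operated and calcium release genes were present in 8 of 13 cases, with the sensor Stim1 at 8.61 and 8.97.

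**Figure D5:**
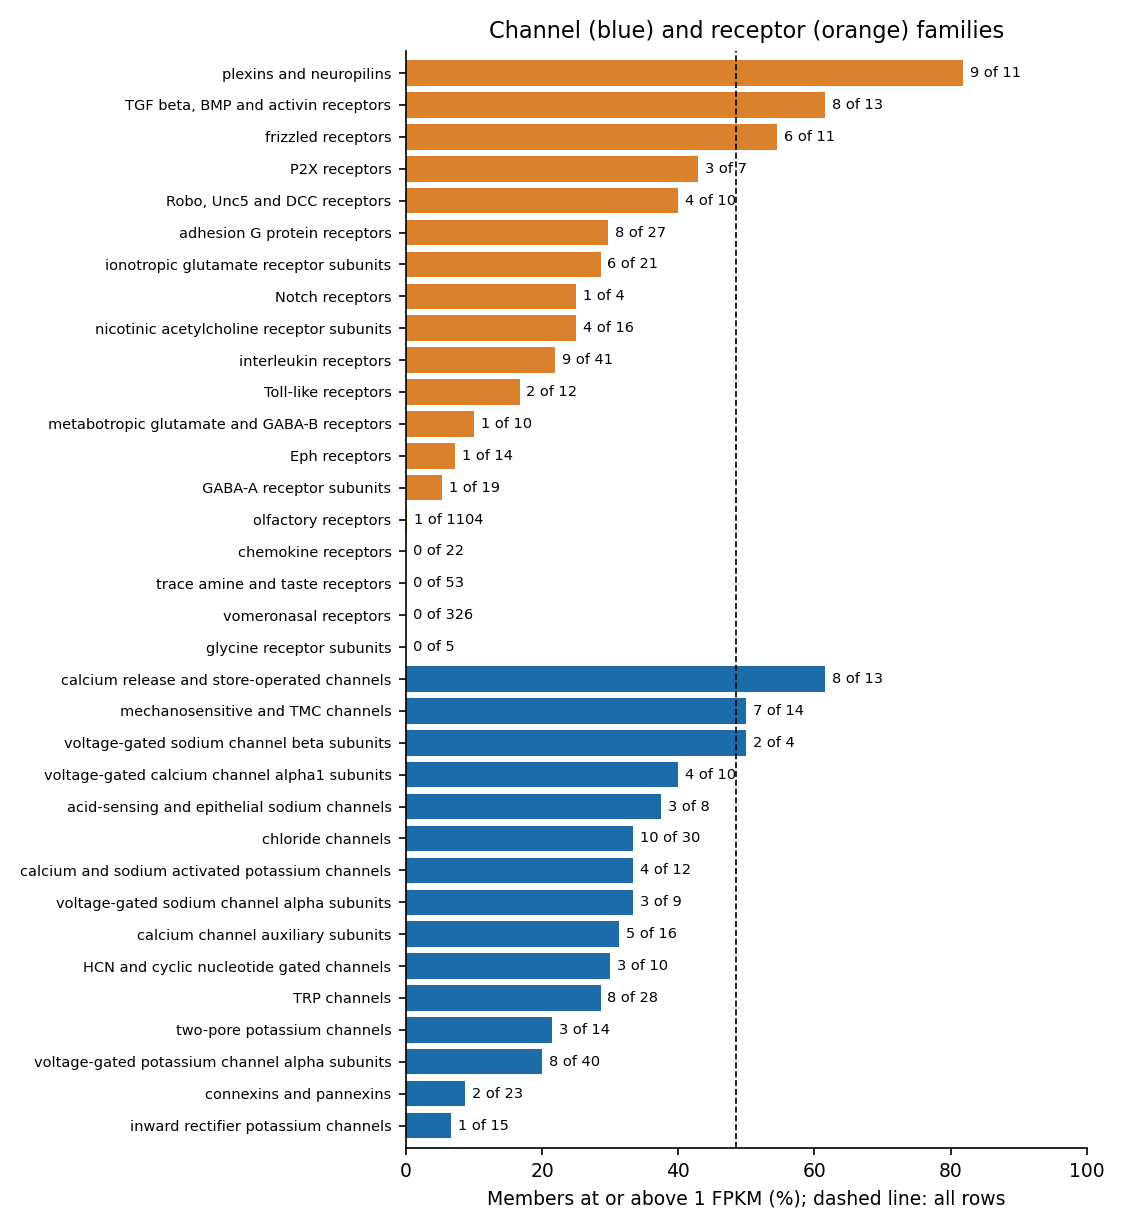
Share of members at or above 1 FPKM (horizontal axis, percent) in each channel family (blue) and receptor family (orange) with at least 4 members, with counts beside the bars. The dashed line is the share over all rows, 48.5%, and most families lie below it, with plexins and neuropilins at 9 of 11.

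Rows at 0 in both libraries clustered in families. Of 1104 olfactory receptor genes, 1080 were at 0 and 1 was present, Olfr1259 at 1.13 and 1.18 FPKM. Of 326 vomeronasal receptors 309 were at 0, and of 53 taste and trace amine receptors 50. Among groups of symbols with the same letters before the first number and at least 20 rows, grouped after the data were seen, all 54 hair keratin-associated (Krtap), 34 secretoglobin (Scgb), 21 late cornified envelope (Lce) and 21 major urinary protein (Mup) rows were at 0. At the other end, all 48 rows beginning Mrpl and all 29 beginning Mrps, the mitochondrial ribosome, all 33 beginning Vps, of vesicle sorting, and all 28 beginning Polr, of RNA polymerases, were present. None of 22 protocadherin beta rows (Pcdhb) was present although 0 of them was at 0 in both libraries, and their median was 0.331 FPKM.

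Among rows matched to GENCODE, the share present ran from 40.3% on chromosome 7 to 59.2% on chromosome 12 over the autosomes. It was 36.4% of 874 rows on the X chromosome. Rows at 0 in both libraries were 735 of 1950 on chromosome 7 and 105 of 618 on chromosome 12. Shares without olfactory and vomeronasal receptors were not computed, so the part of gene content in these shares was not tested. Of 113 rows on the Y chromosome 0 were present and 110 were at 0. The other Y rows, Eif2s3y, Kdm5d and Uty, had values in control 1 alone, each under 0.02 FPKM.

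Markers of other cell types were mostly low. Of 8 astrocyte markers 0 were present, with Slc1a2, Slc1a3 and Gjb6 at 0, and of 10 microglia and macrophage markers 0, with Itgam, Adgre1, C1qa and P2ry12 at 0. Their summed levels were 1.58 and 1.65 FPKM, and 1.15 and 0.841 FPKM. Among 9 oligodendrocyte markers Cnp (4.48 and 5.34) and Mbp (2.04 and 1.77) were present with Mog, Mag and Olig2 at 0. Of 8 Schwann cell markers Pmp22 (86.0 and 88.1) and Erbb3 (2.34 and 3.03) were present with Fabp7 at 0 and Sox10 at a mean of 0.00911. Of 11 blood markers 1 was present, the transcription factor gene Tal1 (4.95 and 5.42), and all 4 globin genes were at 0. Of 8 endothelial markers Vwf (1.90 and 1.85) and Pecam1 (1.36 and 1.69) were present with Cldn5 at 0, and of 9 epithelial markers Krt8 (1.14 and 1.47). The muscle myosin gene Myh3 (mean 17.8) and Des (1.62 and 1.45) were the present ones of 10 muscle markers, with Myod1 at 0.

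Of 22 digestive tract and pancreas markers 12 were present (54.5%, near the 48.5% of all rows), and 1 reached 5 FPKM. Over all 21878 rows, 7470 reached 5 FPKM. Summed levels of the list were 58.4 and 53.4 FPKM. Cela1, a pancreatic elastase, made up much of the sum at 23.2 and 25.9, and Reg1, Apoa1, Prap1, Reg3b and Fabp1 followed with means of 2.64 to 4.20. Alb, Prss1, Ins1 and Ins2 were at 0. The source of these transcripts was not tested.

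Genes for which the line is often used in cell culture work were mostly present. Of 16 prion, amyloid and tau genes 15 were present, with the amyloid precursor gene App at 82.4 and 88.6 FPKM, the prion protein gene Prnp at 28.3 and 27.7, the tau gene Mapt at 18.8 and 17.9 and the beta-secretase gene Bace1 at 8.38 and 7.88. Of 24 genes that handle electrophiles such as acrylamide 18 were present, led by the glutathione peroxidase Gpx4 (238 and 273) and thioredoxin Txn1 (218 and 236), and Gstp1, a glutathione transferase, stood at 116 in each library. Cyp2e1, the cytochrome that oxidizes acrylamide, had a mean of 0.0118.

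The control libraries differed by more than 1 on the log2(FPKM + 1) scale in 2 present rows and by more than 0.5 in 39. The largest difference was in Srp54b, at 0.540 and 2.42 FPKM, a signal recognition particle gene with the near-identical copies Srp54a (0.517 and 0.326) and Srp54c (4.54 and 5.31). The second was in Rnaset2a, at 15.9 and 34.6, whose copy Rnaset2b stood at 2.81 and 3.11. Reads of such copies cannot be assigned with certainty, and the part of this in the differences was not tested. Pet117 (5.72 and 11.0), the chemokine gene Cxcl1 (3.13 and 5.47), Casp4 (1.34 and 2.74) and Gstk1 (4.31 and 7.33) were higher in control 2, and Apoa4 (3.26 and 1.59) and Scd3 (3.62 and 1.83) were lower.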

How the data were processed

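RNA of control Neuro-2a cells was sequenced in 2 libraries made with a stranded, poly(A)-selecting kit, per the labels. The authors deposited FPKM values, 1 column per library. The tools named are Trimmomatic, HISAT2, Cufflinks, HTSeq and DESeq, with build mm10, per the submitters' processing notes. Their versions, the annotation, any filter and the strand setting are not stated there. Because FPKM scales each library to its total, very abundant genes lower the values of the rest, and an exact 0 can be a failed estimate.

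Summed FPKM was 298032 and 305463, and 15193 and 15184 rows were above 0. Absolute depth is unknown. From the steps of 3116 low rows, the depth of control 2 was estimated at 0.979 times that of control 1. At that value 61.6% of these rows lay within 0.03 (log2) of a ratio of small whole numbers. The value was chosen as the best match in the same rows, so this share does not test it.

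Means, SDs, ranks and counts were computed with Python 3.11.15, pandas 2.3.3 and numpy 2.4.6, and checked on simulated data. A row counted as present from a mean of 1 FPKM. Differences used log2(FPKM + 1). Coordinates came from GENCODE release M 21 (build GRCm38), to which 94.3% of rows matched, 98.0% of them protein coding. A date stands for the symbol in 27 rows. The symbol pattern for genes of the mitochondrial genome matched 0 rows. Of 22 listed long noncoding RNAs 1 was found by symbol, so levels of the others could not be given. The 33 gene lists and 53 symbol families, like the choice of libraries, were made with earlier results of these data known. Named were the 30 highest rows, lineage factors, up to 6 highest members and up to 4 members at 0 of each other list or family, and the 10 rows that differed most between the libraries. Beyond that rule, Ldha, Eno1, Tpi1, the low ribosomal genes and other single members were named after their values were seen. Some members that the rule names are not reported here. Alternatives were other thresholds, combinations, scalings and pseudocounts, and each library alone.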

Additional observations from a re-analysis of the deposited data

How the results depend on the processing

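No paired analysis was possible because no groups were compared. With 0.5 FPKM as the level for presence 5 Hox genes were present, and 6 with each library rescaled to the sum that TPM has, in place of 3. At 5 FPKM 33 channel genes and 55 receptor genes were present in place of 71 and 100. The median absolute log2 difference between the libraries was 0.0327 without a filter on low values, in place of 0.065. Apart from these, values over the whole table and over the lineage factor, channel, receptor and Hox sets stayed within 1.5 times of their value. Among them, present rows over the whole table numbered 7470 at 5 FPKM, in place of 10613. Shares of summed FPKM were judged by SD instead and stayed within 1 SD. With each library alone the counts also stayed within 1.5 times. With n = 2 a share from 1 library lies within 1 SD of the mean by design, so those reruns do not test the shares. Receptor genes present numbered 97 without 6 accessory or unrelated proteins. Counts over 83 single lists and families depended on the threshold: 38 moved by over 1.5 times at 5 FPKM, 16 at 0.5 FPKM and 25 under that rescaling, and 0 under the lower value, the geometric mean or scaling by the median ratio. At 5 FPKM the digestive list fell from 12 to 1 and the calcium channel alpha1 subunits from 4 to 0. In control 1 alone 2 Eph and 2 Notch receptors were present in place of 1 each, and in control 2 alone 1 chemokine receptor in place of 0 and 10 replication-dependent histone genes in place of 5. The reruns over single lists and families and the one without accessory proteins were chosen after seeing the data. Rescaling to the TPM sum multiplies each value by 3.29 to 3.33 and moved 473 of 694 named genes by over 1 SD, and scaling control 2 by the median ratio moved 32. Of 315 named genes that were present, 310 stayed so by the lower of their values. Below 0.1 FPKM, depth limits what 2 libraries can show, and a value at 0 does not show that a gene is silent.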
